A study of Mus musculus with 32 samples.

Results

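The genes described here code for the nuclear-encoded subunits of the 5 oxidative phosphorylation complexes of the mitochondrial inner membrane. They were chosen by symbol: every gene whose symbol in the array's annotation starts with Nduf, Uqcr, Sdha to Sdhd, Cox4 to Cox8 or Atp5, each represented by its brightest probe set on average across the arrays. The rule found 94 of 18193 genes with a symbol of their own: 82 subunits and 12 assembly factors (Ndufaf1 to Ndufaf8 and Sdhaf1 to Sdhaf4). After the filter on low signal 92 of the 94 and 13334 genes in all were tested. Ndufb4 and the testis form Cox7b2 did not pass it. Another 8 symbols under the rule lay only on probe sets shared by several genes and were left out. The tested subunits were 35 of complex I, 4 of complex II, 8 of complex III, 16 of complex IV and 17 of complex V. Subunits coded by mitochondrial DNA were not analysed here.

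The lungs came from C3H/HeN mice, either wild type (Gsr-WT, "WT") or lacking glutathione reductase (Gsr-KO, "KO"), the enzyme that returns oxidised glutathione to its reduced form. They were collected before birth on embryonic day 19 (E19) or on postnatal days 5 (P5) and 56 (P56). After birth the pups breathed room air or 100% oxygen (hyperoxia) from P0 to P5, and the P56 mice then recovered in room air. Each genotype had 4 arrays at E19 and 3 in each of its 4 postnatal groups, 32 arrays in 10 groups, with 1 mouse per array. RNA came from part of a lung, sex is not among the labels, and in bulk RNA fewer cells of a type and less RNA per cell cannot be told apart.

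Complex I (NADH dehydrogenase) and complex II (succinate dehydrogenase) pass electrons to ubiquinone, complex III hands them to cytochrome c, and complex IV (cytochrome c oxidase) passes them to oxygen. Complex V, the ATP synthase, makes ATP from the proton gradient that complexes I, III and IV build. Most of these subunits have a single form used in every tissue, but several subunits of complex IV have alternative forms: Cox6a2, Cox7a1 and Cox8b belong to heart and skeletal muscle, Cox7a1 and Cox8b also to brown fat, Cox4i2 to lung and to low oxygen, and Cox6b2 and Cox8c to testis.

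Signals are deposited array intensities in arbitrary units. A difference is a log2 difference of signal plus an offset of 26.33 (SE is its standard error). A gene is "called" where limma's adjusted p (Benjamini-Hochberg over all genes tested) is under 0.05, and "no overlap" means that every array of one group lay above every array of the other. Levels of different probe sets are not comparable, so each gene is set only against itself. Some counts of called members, as in fits that leave out 1 array, stand without a share of all genes. They show only how far a count depends on the arrays or settings. The label check held on every array: the Gsr probe set gave 498.4 to 1541 units in WT and 138.3 to 256.6 in KO. The lung marker Sftpc, the surfactant protein of alveolar type 2 cells, lay between 12640 and 28640 units. At E19 the arrays differed in RNA of other tissues. Heart marker RNA was high on WT replicate 1 and KO replicates 3 and 4, and liver marker RNA was high on WT replicates 2, 3 and 4. Signal of the 3′ over the 5′ controls for actin and Gapdh, a measure of RNA integrity, was a log2 ratio of 4.27 on KO E19 replicate 1 and 2.81 on WT P56 hyperoxia replicate 2, against at most 1.55 elsewhere.

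The 73 subunits without the tissue forms varied within groups about as much as other genes and differed less between them. The within-group SD had a median of 0.276 on the log2 scale, against 0.293 over all genes tested. The group means of a subunit spanned a median of 0.674, against 0.878 over all genes. Complex II varied most within groups (median SD 0.417) and complex IV least (0.208). The 7 tested tissue forms (Cox4i2, Cox6a2, Cox6b2, Cox7a1, Cox8b, Cox8c and Ndufa4l2) had a median SD of 0.617 and a median span of 1.68.

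Each array's subunit level was taken as the mean over the 73 subunits of log2 signal less the gene's mean across the 32 arrays. It was highest in KO at E19 (0.305 ± 0.433, SD, n = 4), followed by WT at E19 (0.129 ± 0.211, SD, n = 4) and KO P56 air (0.116 ± 0.0939, SD, n = 3). Next came KO P56 hyperoxia (0.0723 ± 0.0904, SD, n = 3) and WT P5 air (-0.0511 ± 0.119, SD, n = 3). The other 3 P5 groups lay between -0.116 and -0.0936, and the WT P56 groups were lowest, at -0.183 ± 0.0735 (SD, n = 3) after hyperoxia and -0.226 ± 0.0598 (SD, n = 3) in air. Neighbours in this order overlapped on single arrays. The P56 genotypes, which are not neighbours, did not overlap: the KO arrays lay at -0.032 to 0.22 and the WT arrays at -0.266 to -0.0977.

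**Figure D1:**
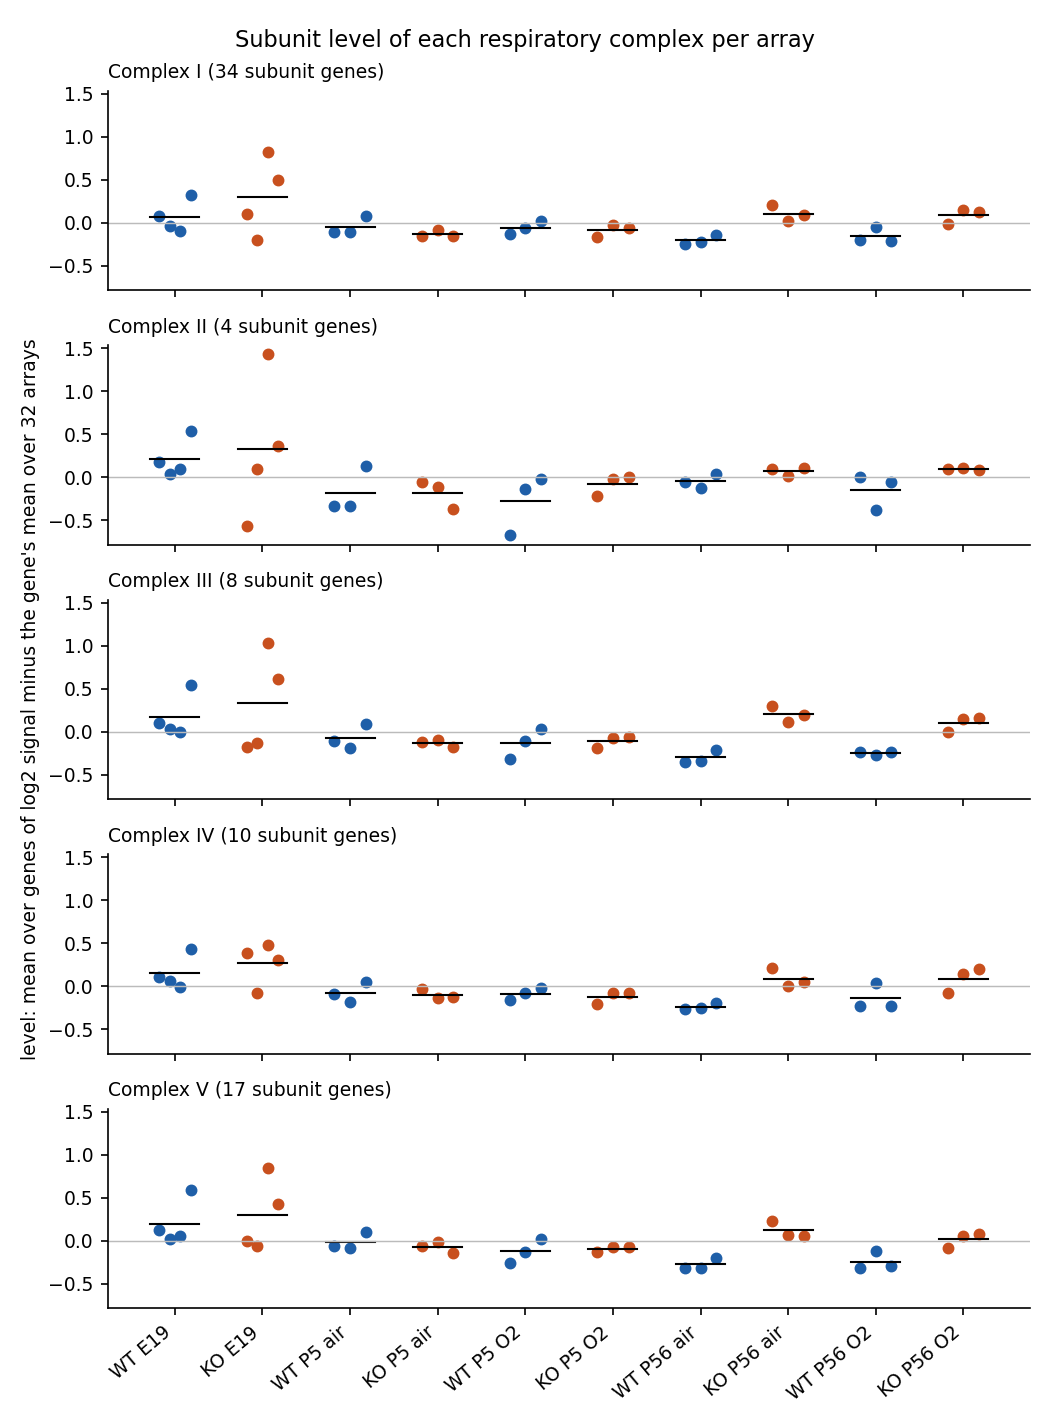
Subunit level of each complex by group (vertical axes, mean over the complex of log2 signal less the gene's mean across the 32 arrays), with the tissue forms left out; points are arrays, blue for WT and orange for KO, and black bars are group means. The E19 KO arrays spread most, from -0.128 to 0.838 over all 73 subunits. In complex IV the P56 genotypes overlap, with WT hyperoxia replicate 2 at 0.0432 and the lowest KO array at -0.0712. In complex II they overlap too, as WT P56 air replicate 3 lies above KO P56 air replicate 2.

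At E19, 6 of the 92 members were called between KO and WT, all of them higher in KO: the muscle forms Cox8b, Cox6a2 and Cox7a1 and the complex I subunits Ndufs7, Ndufa13 and Ndufa1. Over all genes, 6.97% were called higher, close to the members' share. All 6 overlapped between the genotypes: KO replicates 3 and 4 stood high while KO replicate 2 lay among the WT arrays or below them. The median over the 73 subunits was 0.202, with 56 of 73 positive (76.7%), against -0.0505 over all genes tested. Centring each array on its median signal moved the median of all genes to 0.231 and made 97.3% of the subunits positive. It called 37 members, and 22.7% of all genes, against 15.2% of all genes without centring.

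In complex I, the iron-sulphur core subunit Ndufs7 read 4312, 4317, 3000.5 and 3644 units in WT and 9190, 3171, 7407 and 7482 in KO (log2 0.74, SE 0.20, adjusted p = 0.0128). KO replicates 1, 3 and 4 exceeded every WT array and KO replicate 2 lay among them. The other Ndufs7 probe set differed less, by log2 0.181. Ndufa13, an accessory subunit also known as GRIM-19, read 7905, 7431, 5688 and 7266 in WT and 11831, 6673, 11614 and 12288 in KO (log2 0.55, SE 0.14, adjusted p = 0.00836). Ndufa1, an X-linked accessory subunit, read 10255, 9759, 9349.8 and 12607 in WT and 16423, 9231, 16015 and 15255 in KO (log2 0.41, SE 0.14, adjusted p = 0.0446). For both genes KO replicate 2 was the lowest of the KO arrays and the other 3 stood above every WT array. The lowest difference in complex I was that of Ndufa4l2, which reduces complex I activity in low oxygen and is named after Ndufa4, now placed in complex IV. It read 1032, 580.1, 706 and 404 in WT and 90.4, 745, 539 and 299 in KO (log2 -0.90, adjusted p = 0.13), with the groups overlapping.

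No subunit of complexes II, III or V was called at E19. Among the succinate dehydrogenase subunits the difference ran from -0.24 for the membrane anchor Sdhc to 0.43 for the iron-sulphur subunit Sdhb. In complex III it ran from -0.14 for the core protein Uqcrc1 to 0.36 for the small subunit Uqcrq. In complex V it ran from -0.87 for Atp5g2, 1 of the genes for the proton-carrying ring, to 0.60 for Atp5md, a small subunit that helps hold ATP synthase dimers together. Atp5g2 read 5298, 4463, 5593 and 7071 in WT and 678, 5093, 7081 and 3334 in KO (log2 -0.87, adjusted p = 0.164). KO replicates 1 and 4 lay below every WT array and KO replicate 3 above them all. KO replicate 1, the array with the highest 3′ to 5′ ratio, was the lowest KO array for Sdhc (1149 units) and Uqcrc1 (1188). It was also the lowest for Atp5g2 and, in complex I, for Ndufa4l2. The mean signal of Sdhc was 3954 in KO and 3855 in WT, and that of Uqcrc1 was 6182 and 5280, opposite in sign to their log2 differences. The medians by complex were 0.212 for I, 0.137 for II, 0.228 for III, 0.171 for IV without tissue forms and 0.0936 for V.

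**Figure D2:**
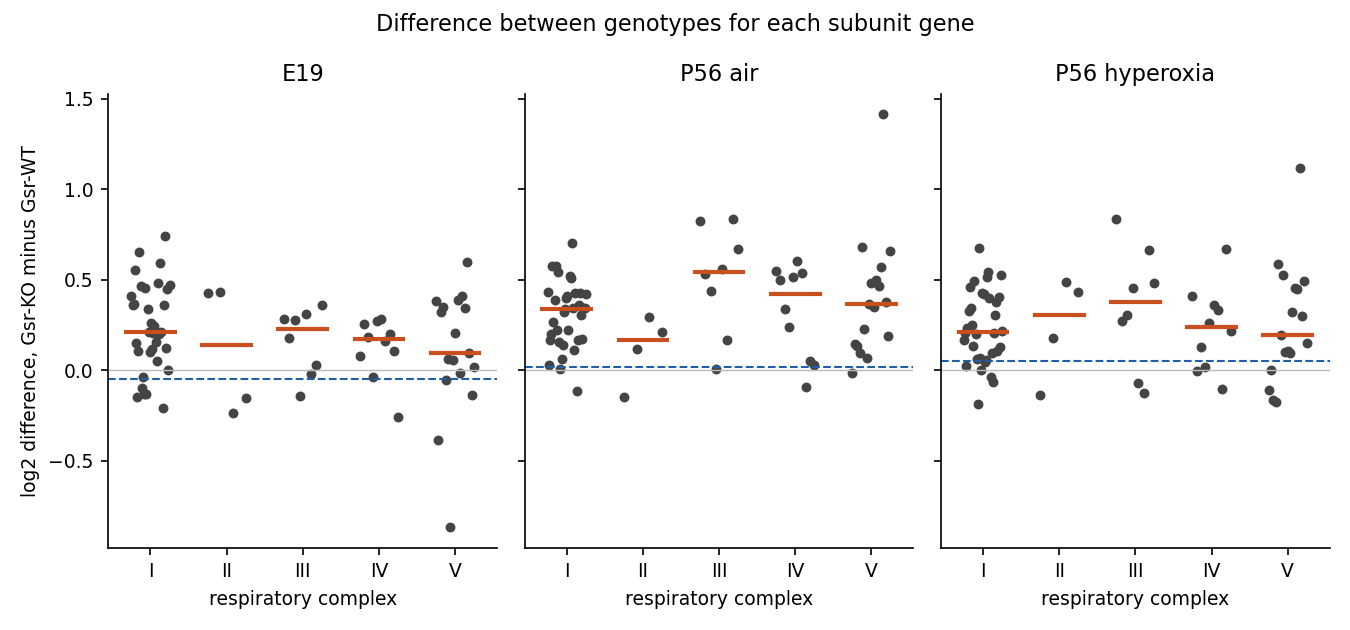
Log2 difference of KO over WT for each subunit without tissue forms (points) by complex, at E19, in P56 air and in P56 hyperoxia. Red bars are medians per complex and the dashed blue line is the median of all genes tested. At E19 the medians lie between 0.0936 and 0.228, and in P56 air they reach 0.545 in complex III.

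In KO at E19 the subunit level was highest on the 2 arrays rich in heart markers, whereas in WT the heart-rich replicate 1 was not the highest. The subunit level was 0.104, 0.00462, -0.0276 and 0.434 on the WT arrays and 0.0473, -0.128, 0.838 and 0.462 on the KO arrays. The level of 10 heart muscle markers, all 10 measured and none at 0, was 2.04, -0.917, -1.46 and -0.0871 in WT and 0.195, -0.338, 3.21 and 3.66 in KO, with summed signals of 8667 to 92830 and 21600 to 188100 units. The liver marker level was -0.657, 6.05, 5.11 and 6.26 in WT against -1.83 to 1.02 in KO, and all 10 liver markers were called lower in KO. Of the markers of red cell precursors 7 of 8 were called lower in KO, and of those of dividing cells 12 of 13. Without the 3 arrays high in heart markers, which leaves 2 KO arrays, 1 of them the array with the highest 3′ to 5′ ratio, the direction was lost. The median over the 73 subunits was -0.0519 with 33 positive, and 16 members were called, 2 higher and 14 lower, against 12.2% of all genes higher and 15.1% lower. The lowest, named after their values were seen, were Atp5g2 (log2 -1.57), the ring gene Atp5g1 (-1.13) and Sdhc (-1.13). Ndufs7, Ndufa13 and Ndufa1 were not among the 16. With the level of the liver markers as a covariate, or with the 8 E19 arrays fitted alone, 0 members were called at E19 (limma), and leaving out 1 array gave 2 (WT replicate 3) to 32 (KO replicate 2), with 3 without KO replicate 4.

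The muscle and brown fat forms of complex IV gave the widest differences among the members. Cox8b, the muscle form of subunit VIII, read 856, 60.0, 39.8 and 289 units in WT and 537, 367, 7277 and 5609 in KO at E19. KO replicates 3 and 4 were the high arrays and WT replicate 1 the highest of its group. The fitted fold was 8.7 (log2 3.12, SE 0.74, adjusted p = 0.00491). Cox6a2, the muscle form of subunit VIa, read 2274, 233, 136 and 409.7 in WT and 654, 487, 7679 and 7625 in KO, a fold of 4.69 (log2 2.23, SE 0.67, adjusted p = 0.0249). Cox7a1, the muscle form of subunit VIIa, read 1108, 239, 211 and 534 in WT and 547, 351, 6221 and 4543 in KO, a fold of 3.52 (log2 1.82, SE 0.62, adjusted p = 0.0487). In all 3 genes the same 2 KO arrays stood out and the groups overlapped.

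The heart light chain Myl3 read 1540, 124, 62.6 and 216 in WT and 559.5, 376, 24490 and 18690 in KO, and was high on the same 2 KO arrays. The atrial hormone gene Nppa read 20330, 9.84, 17.1 and 507 in WT and 483, 16.7, 4203 and 23160 in KO, and was highest on KO replicate 4 and WT replicate 1. With the heart and skeletal muscle marker level as a covariate the 3 differences were smaller and still called, at log2 2.25 (adjusted p = 0.0014) for Cox8b, 1.45 (adjusted p = 0.0195) for Cox6a2 and 1.08 (adjusted p = 0.0478) for Cox7a1. Without the 3 heart-rich arrays Cox8b (log2 1.95, adjusted p = 0.0116) and Cox6a2 (log2 1.16, adjusted p = 0.0112) were called and Cox7a1 was not. On the arrays left Myl3 was still higher in KO, at 559.5 and 376 against 124, 62.6 and 216 in WT, and Nppa overlapped. Of the 2 KO arrays left, replicate 1 had the highest 3′ to 5′ ratio of the series. With the liver markers as a covariate none of the 3 was called, and Cox8b was at log2 2.38 (adjusted p = 0.242). The brown fat marker Ucp1 was at 2.19 to 15.1 units on all 8 E19 arrays, where Cox8b was at up to 7277.

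The promoters of Cox8a and Cox8b and of Cox7a2 and Cox7a1 are shown because the common form and the muscle form of the same subunit differed in how far they moved. Each line gives 250 bases before and 50 after the start of the gene in RefSeq on GRCm38.p6, 5′ to 3′ on the gene's strand. Capitals mark matches, on either strand, to the letters CCGGAAG (an ETS factor motif), GCGCA joined to its reverse complement TGCGC (NRF1), AAGATGGCG (YY1), CAGCTG (an E-box of the kind bound by muscle factors) or TATAAA.
Cox8a (chr19:7217567-7217866, minus strand): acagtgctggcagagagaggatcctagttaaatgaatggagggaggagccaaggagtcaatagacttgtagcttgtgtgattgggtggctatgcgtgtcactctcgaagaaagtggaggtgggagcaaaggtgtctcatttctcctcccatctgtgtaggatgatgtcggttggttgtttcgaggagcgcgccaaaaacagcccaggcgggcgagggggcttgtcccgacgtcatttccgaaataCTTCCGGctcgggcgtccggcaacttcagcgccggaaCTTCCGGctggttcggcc
Cox8b (chr7:140900397-140900696, minus strand): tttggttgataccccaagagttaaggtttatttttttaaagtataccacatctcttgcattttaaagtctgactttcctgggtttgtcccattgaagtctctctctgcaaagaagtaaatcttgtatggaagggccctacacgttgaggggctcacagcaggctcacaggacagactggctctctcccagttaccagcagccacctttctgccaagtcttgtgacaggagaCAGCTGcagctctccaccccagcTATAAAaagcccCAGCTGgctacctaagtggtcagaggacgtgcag
Cox7a2 (chr9:79759804-79760103, minus strand): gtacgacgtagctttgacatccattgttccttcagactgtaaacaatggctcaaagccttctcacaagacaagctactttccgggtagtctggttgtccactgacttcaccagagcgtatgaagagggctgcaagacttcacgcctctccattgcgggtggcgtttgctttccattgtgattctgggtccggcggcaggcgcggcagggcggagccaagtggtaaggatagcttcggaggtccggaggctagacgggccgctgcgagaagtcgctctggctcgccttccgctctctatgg
Cox7a1 (chr7:30183921-30184220, plus strand): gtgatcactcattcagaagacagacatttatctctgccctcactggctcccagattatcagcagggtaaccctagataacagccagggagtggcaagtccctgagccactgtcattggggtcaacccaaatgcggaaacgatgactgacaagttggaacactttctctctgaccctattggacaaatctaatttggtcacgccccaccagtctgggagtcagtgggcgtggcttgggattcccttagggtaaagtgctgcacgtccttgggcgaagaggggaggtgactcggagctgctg
Cox8a holds 2 matches to CCGGAAG and none of the other letters. Cox8b holds 2 matches to CAGCTG and 1 to TATAAA. Neither Cox7a2 nor Cox7a1 holds any of these letters in this window. A promoter was found for 78 members, of which 28.2% held CCGGAAG, 7.69% the NRF1 palindrome and 8.97% AAGATGGCG. Among all 27025 promoters of this length the shares were 9.93%, 1.07% and 1.64%. For CAGCTG the share was 7.69% of members and 18.3% of all promoters, and for TATAAA 11.5% and 15.7%. None of these motifs contains another, and the NRF1 palindrome and CAGCTG were counted once per site. Members had a median GC content of 59% in the window, against 52.7% over all promoters. By complex, CCGGAAG was held by 4 of 32 in complex I, 2 of 3 in II, 2 of 5 in III, 3 of 8 in IV and 6 of 15 in V. A match is a stretch of letters and no measured binding.

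At P5 no array reached the E19 peaks of the muscle forms. Cox8b lay between 151 and 896 units over the 12 arrays. It read 443, 451 and 285 in KO hyperoxia, where the skeletal muscle marker level was 2.92 to 3.04.

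At P56 Cox8b and Cox7a1 were higher in KO without being called. Cox8b read 473, 353 and 1048 units in WT air and 2216, 1576 and 2264 in KO air (log2 1.78, adjusted p = 0.412). It read 1549, 597 and 653 in WT after hyperoxia and 2847, 1749.5 and 1449 in KO after hyperoxia (log2 1.17, adjusted p = 0.725). In air every KO array was above every WT array, and after hyperoxia the groups overlapped. Cox7a1 read 582, 294 and 1138 in WT air and 2876, 1915 and 1747 in KO air (log2 1.82, adjusted p = 0.296), without overlap. After hyperoxia it read 795, 486 and 629 in WT and 1239, 1133 and 917 in KO (log2 0.78, adjusted p = 0.791), again without overlap. Cox6a2 read 999.5, 719 and 1623 in WT air and 1252, 1500.5 and 1622 in KO air (log2 0.45, adjusted p = 0.889), with overlap.

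At P56 the mean fat marker level and the mean Cox8b signal were both lowest in WT air. Cox7a1 and Cox6a2 did not follow fat marker RNA. The mean level of markers of fat of either kind was 1.52 in KO air and 1.87 in KO hyperoxia. Cox7a1 had means of 2179 and 1096 units in these groups, and Cox6a2 of 1458 and 732.1. Ucp1, the uncoupling protein that defines brown fat, read 5.81, 3.45 and 8.19 units in WT air, 183, 8.06 and 592 in KO air, 1461, 2.19 and 5.32 in WT hyperoxia and 1946, 723 and 440.3 in KO hyperoxia. The 5 brown fat markers, none at 0, summed to 464.9, 323.3 and 578.4 in WT air and 826, 524.5 and 1852 in KO air. After hyperoxia they summed to 3038, 562.5 and 698.6 in WT and 4535, 1840 and 1376 in KO. WT hyperoxia replicate 1, the WT array with the most Ucp1 RNA at P56, was also the WT array with the most Cox8b. KO air replicate 2 had Ucp1 at 8.06 units, as low as most WT arrays, with Cox8b at 1576. With the fat marker level as a covariate the KO difference in air was log2 0.42 (adjusted p = 0.954) for Cox8b and 0.91 (adjusted p = 0.839) for Cox7a1. That covariate was added after the data were seen. In air Cox8b, Cox7a1, Cox6a2 and the heart marker level were all lowest on WT replicates 1 and 2. The heart marker level was -0.429, -1.44 and 0.391 in WT air and 0.381, 0.455 and 0.395 in KO air. Its summed signals were 7893 to 33660 and 31920 to 33410 units. The atrial light chain Myl7 read 4536, 1551 and 7818 in WT air and 9533, 8354 and 8340 in KO air. After hyperoxia the heart marker levels overlapped, at -1, -0.82 and -0.373 in WT and -0.534, -0.641 and -0.827 in KO.

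**Figure D3:**
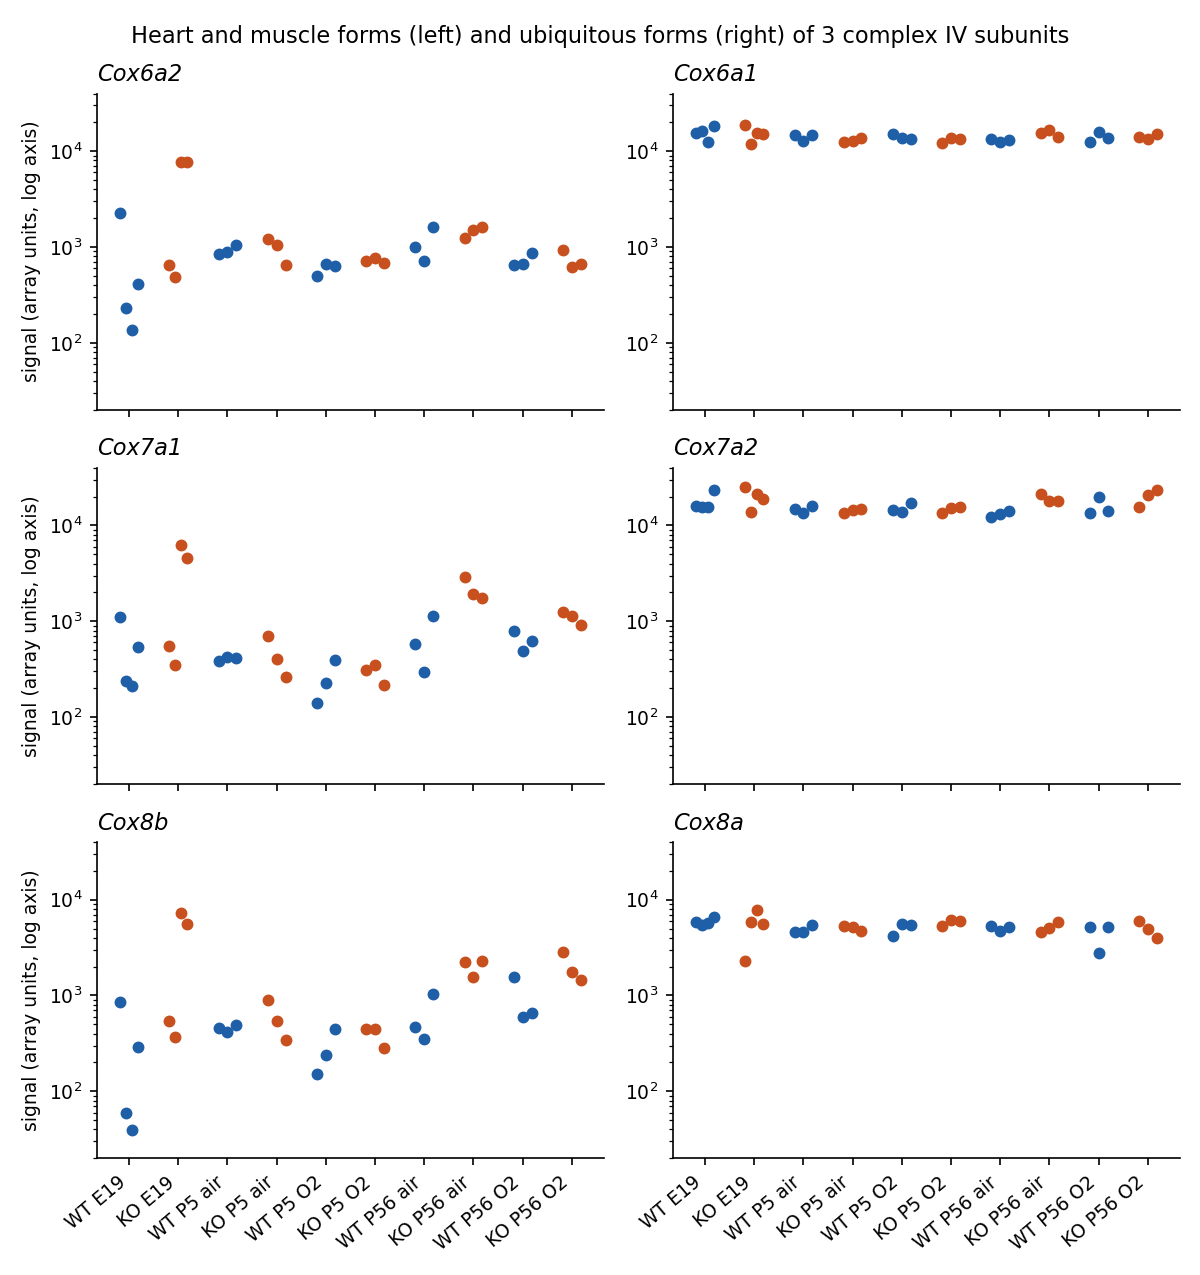
Signal (log axes, array units) of the heart and muscle forms Cox6a2, Cox7a1 and Cox8b (left) and of the common forms Cox6a1, Cox7a2 and Cox8a (right) by group; points are arrays, blue for WT and orange for KO, and O2 is hyperoxia. The muscle forms reach 6221 to 7679 units on KO E19 replicate 3, and Cox7a1 and Cox8b of KO lie above WT in P56 air.

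**Figure D4:**
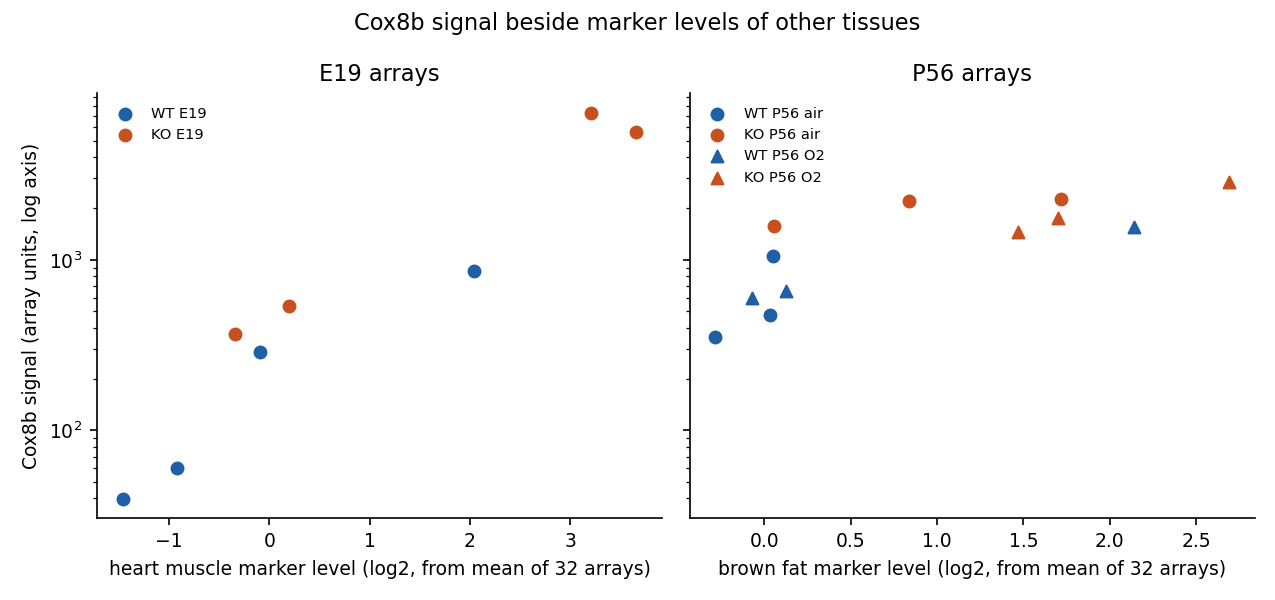
Cox8b signal (vertical, log axis, array units) against the heart marker level at E19 and the brown fat marker level at P56 (horizontal, mean centred log2 signal); points are arrays, blue for WT, orange for KO, triangles for hyperoxia. Cox8b was highest on the 2 E19 KO arrays with heart marker levels of 3.21 and 3.66, and the 5 P56 arrays with brown fat levels of 1.47 to 2.69 had Cox8b at 1449 to 2847 units.

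No other tissue-restricted form was called between genotypes in the fit of all 32 arrays with equal weights. Cox4i2, the lung form of subunit IV, read 209.6, 159, 192 and 214 units in WT and 90.4, 115, 160.3 and 118 in KO at E19 (log2 -0.59, adjusted p = 0.0516). The highest KO array lay just above the lowest WT array. Without the 3 heart-rich E19 arrays Cox4i2 was called lower in KO (log2 -0.73, adjusted p = 0.0441). The log2 ratio of Cox4i2 to the common form Cox4i1 was 0.674 lower in KO (exact permutation test, two-sided, p = 0.0286, n = 4 and 4, Benjamini-Hochberg adjusted over 78 such ratio tests p = 0.355). From E19 to P5 in air that ratio was 0.886 higher in WT and 1.13 higher in KO, without overlap (exact permutation p = 0.0286 each, n = 3 and 4, adjusted p = 0.355). The smallest p these ratio tests can give is 0.0286 with 4 arrays in a group and 0.1 with 3 against 3. At P56 in air the ratio of Cox8b to Cox8a was 1.75 higher in KO and that of Cox7a1 to Cox7a2 was 1.28 higher, both without overlap (exact permutation p = 0.1, n = 3 and 3, adjusted p = 0.355). The ratio of the testis form Cox6b2 to Cox6b1 was 0.723 lower in KO there, also without overlap (exact permutation p = 0.1, n = 3 and 3, adjusted p = 0.355). Cox8c, the testis form of subunit VIII, lay between 198.2 and 358.5 units on all 32 arrays.

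At P5, after 5 days of air or oxygen, 0 members were called in any comparison of genotype or oxygen (limma). Over all genes the called shares were also small: 0.0375% for KO against WT in air, 0.187% in hyperoxia, 0.0075% for hyperoxia against air in WT, 0.345% in KO and 0.15% for their interaction, the genotype-by-oxygen term. The medians over the 73 subunits were -0.0781 for KO against WT in air and -0.0275 in hyperoxia. They were -0.0415 for hyperoxia against air in WT, 0.027 in KO and 0.0627 for the interaction. At an unadjusted p under 0.05 there were 2 members for hyperoxia against air in KO, against 777 of all genes, and 0 in the other 4 comparisons, against 304 to 742. With each array centred on its median signal the subunits higher in KO went from 28.8% to 63% in air and from 45.2% to 75.3% in hyperoxia. That centring shifts all genes alike: in air the median of all genes went from 0.00979 to 0.124 and that of the subunits from -0.0781 to 0.0363, below all genes in both. Quantile normalization gave 26% in air and 56.2% in hyperoxia. For hyperoxia against air in KO centring took the share of higher subunits from 64.4% to 43.8%. The share for the interaction went from 72.6% to 57.5%. For hyperoxia against air in WT the shares were 32.9%, 34.2% with quantile normalization and 24.7% with centring. Skeletal muscle RNA was high on the KO hyperoxia arrays: the level of 13 skeletal muscle markers was 3.04, 2.99 and 2.92 there, 0.0764, -0.9 and -1.06 in KO air, -1.2, 0.662 and 1.95 in WT hyperoxia and 2.4, 0.0843 and -0.455 in WT air. With the muscle marker level as a covariate the subunit medians were -0.177 for KO against WT in hyperoxia, -0.134 for hyperoxia against air in KO and -0.127 for the interaction. Keratin markers of squamous epithelium had a mean level of 2.84 in KO hyperoxia, -0.81 in KO air, -0.676 in WT hyperoxia and 1.03 in WT air. Liver markers were at -2.06, -1.1, 0.111 and 2.9 in the same order. With the liver marker level as a covariate the median for KO against WT in air was 0.0437. Cox4i1, the common form of subunit IV, read 12738, 11936 and 14366 units in WT air, 12530, 12076 and 13025 in KO air, 13960, 12817 and 13590 in WT hyperoxia and 11369, 12533 and 13138 in KO hyperoxia. Ndufa4 read 5970.4, 5676 and 7558 in WT air, 4784, 6470.1 and 5743 in KO air, 4912, 6369 and 8140.5 in WT hyperoxia and 5873, 7196 and 7076 in KO hyperoxia. For both genes the 4 groups overlapped.

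At P56 most subunit genes were higher in KO lungs than in WT lungs, by small amounts, in mice raised in air and in mice recovered from hyperoxia. In air 69 of the 73 subunits without tissue forms were higher in KO, with a median of 0.345 against 0.017 over all genes. After hyperoxia 61 of 73 were higher, with a median of 0.231 against 0.0491. No member was called in either comparison (limma), where 0.075% and 0.0375% of all genes were called. At an unadjusted p under 0.05 there were 31 of 92 members in air, against 1578 of all genes, and 17 after hyperoxia, against 1163. In air 46 of the 73 subunits (63.0%) were higher in KO without overlap and 1 was lower, against 17.9% of all genes higher. After hyperoxia 20 of 73 (27.4%) were, against 9.37% of all genes. Of the 46 cytosolic ribosome genes 89.1% were higher in KO without overlap in air and 15.2% after hyperoxia. Total signal was also higher on the KO air arrays, at 33601900 to 34335100 units against 31276000 to 31448700 in WT air. Whether this sets the differences was not tested. Scaling changed the sizes: quantile normalization took the share of subunits higher in KO air from 94.5% to 80.8%, and centring on array medians took the share after hyperoxia from 83.6% to 60.3% and the median of all genes there to -0.125.

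Every complex had a positive median at P56. In air it was 0.336 for complex I (without Ndufa4l2, as 1 of the tissue forms), 0.164 for II, 0.545 for III, 0.419 for IV without tissue forms and 0.363 for V. The subunits higher in KO air without overlap were 21 of 34 in complex I, 1 of 4 in II, 6 of 8 in III, 7 of 10 in IV and 11 of 17 in V. After hyperoxia the medians were 0.216, 0.303, 0.379, 0.238 and 0.194 in the order of the complexes. Hyperoxia against air at P56 gave 0 called members in either genotype, as did the genotype-by-oxygen term, and each called 0% of all genes. At an unadjusted p under 0.05 there was 1 member in WT, against 680 of all genes, and there were 0 in KO and for the term, against 360 and 328. The shares of subunits higher after hyperoxia, 60.3% in WT and 30.1% in KO, became 46.6% each with quantile normalization, and 80.8% in WT with arrays centred on their medians. The share for the term, 32.9%, became 53.4% and 16.4%.

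With the 2 P56 conditions pooled, a comparison added after the data were seen, 10 members were called higher in KO and 0 lower, against 1.28% of all genes higher. They belong to complexes I, III, IV and V. Cox4i1 read 10834, 10853 and 10805 units in WT air and 17778, 14778 and 15090 in KO air, and 10919, 10130 and 10975 in WT and 11994, 15189 and 15743 in KO after hyperoxia (log2 0.48, SE 0.10, adjusted p = 0.0155). The 6 WT arrays lay within a narrow band and all 6 KO arrays above it. Atp5e, the epsilon subunit of the ATP synthase stalk, read 5309.9, 5370.5 and 5186 in WT air and 9528, 8619 and 7495 in KO air, and 5472, 5283 and 5435 in WT and 6257, 8766 and 9749.5 in KO after hyperoxia (log2 0.64, SE 0.14, adjusted p = 0.0208). Ndufb8, an accessory subunit of the membrane arm of complex I, read 4343, 4816 and 4266 in WT air and 9157, 6549 and 6452 in KO air, and 4848, 5062 and 4288 in WT and 5486, 7555 and 7902 in KO after hyperoxia (log2 0.62, SE 0.17, adjusted p = 0.0444). Neither gene had a KO array below a WT array, and in both KO hyperoxia replicate 1 was the lowest KO array.

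The complex I subunits Ndufa7 (log2 0.52, adjusted p = 0.0155) and Ndufb3 (log2 0.41, adjusted p = 0.0303) and the ATP synthase subunit Atp5j2 (log2 0.41, adjusted p = 0.0333) were also called. The other 4 were named after their values were seen. Uqcrh, the hinge protein of complex III, read 5658, 6146 and 6648 units in WT air and 13165, 10292 and 9779.7 in KO air, and 5912, 7706 and 6179 in WT and 7602, 11700 and 12593 in KO after hyperoxia (log2 0.75, SE 0.16, adjusted p = 0.0147). Uqcr10, a small subunit of complex III, differed by log2 0.83 (adjusted p = 0.0162) and Cox6c by 0.48 (adjusted p = 0.0252). Atp5md read 3101, 3028 and 4642 in WT air and 14376, 8152 and 7146 in KO air, and 3295, 12244 and 3086 in WT and 6752, 13623 and 13931 in KO after hyperoxia (log2 1.27, SE 0.33, adjusted p = 0.041). For Uqcrh and Atp5md WT hyperoxia replicate 2 was the highest WT array, and for Atp5md it lay above 3 of the 6 KO arrays.

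RNA integrity moved with these values. The 3′ to 5′ log2 ratio was 0.21, 0.347 and 0.358 in WT air and 1.05, 0.809 and 0.68 in KO air, and 0.276, 2.81 and 0.308 in WT and 0.542, 1.23 and 1.55 in KO after hyperoxia. The genes of the cytosolic ribosome moved with them: the median over 46 of them was 0.482 in air and 0.289 after hyperoxia, and 23 of 46 were called with both conditions together. Without the 2 arrays of highest 3′ to 5′ ratio in the series, 25 members were called with both conditions together, against 9.81% of all genes. With the ratio as a covariate and all arrays kept, 33 were called, against 14.8% of all genes. With both changes at once 0 members were called (limma), against 0.0225% of all genes. The median over the 73 subunits then fell from 0.297 to 0.227, and 68 of 73 were positive. With the fat marker level as a covariate 0 were called, against 0.03% of all genes, and the median was 0.233. With arrays centred on their medians 0 were called, against 1.28% of all genes. The median there was 0.171, against -0.0884 over all genes. Leaving out 1 array gave 0 to 17 called members, with 0 where KO air replicate 1, KO hyperoxia replicate 2 or KO hyperoxia replicate 3 was left out, 17 without KO hyperoxia replicate 1, and 4 or 5 without any WT array other than hyperoxia replicate 2. The fit of the 6 P56 air arrays alone called 30 members, against 9.04% of all genes. With array weights 46 members were called in air and 53 after hyperoxia, against 20.2% and 35.6% of all genes.

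**Figure D5:**
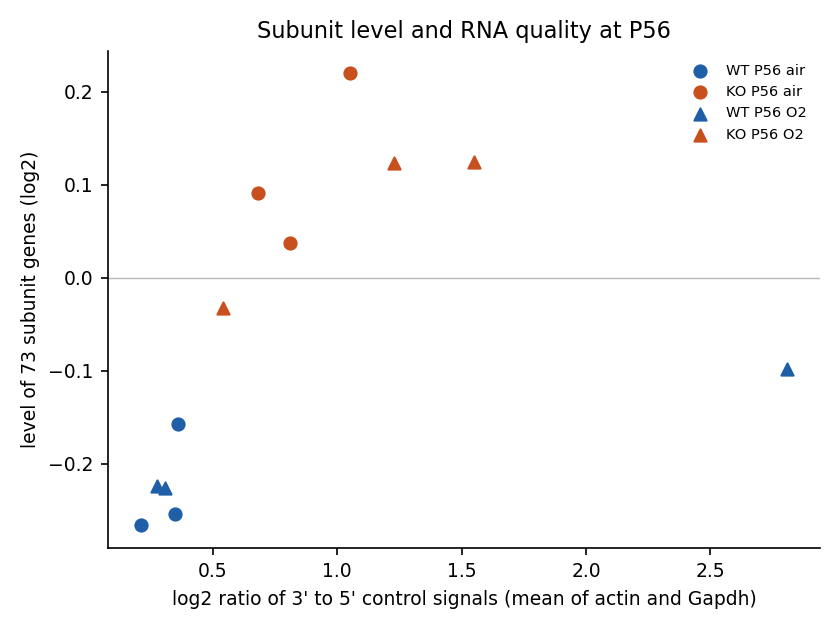
Subunit level at P56 (vertical, mean centred log2 signal of the 73 subunits) against the 3′ to 5′ log2 ratio of the control probes for actin and Gapdh (horizontal); points are arrays, blue for WT, orange for KO, triangles for hyperoxia. The KO arrays, at -0.032 to 0.22, lie above the WT arrays, and their ratios are higher except beside the WT array at 2.81.

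From E19 to P5 in air, around birth, subunit genes were mostly lower, and few were called. In WT 4 members were called lower and 0 higher, against 6.22% of all genes lower. The median over the 73 subunits was -0.167, with 16 of 73 positive, against 0.0131 over all genes. Cox7a2l, which helps join complexes III and IV into supercomplexes, read 7099, 6821, 5585 and 6322 units at E19 and 4422, 4282 and 5069.5 at P5 (log2 -0.49, SE 0.12, adjusted p = 0.00853). The complex I subunit Ndufa6 fell by 0.58 on the log2 scale (adjusted p = 0.0291). Among the assembly factors of complex I, Ndufaf1 changed by log2 -0.47 (adjusted p = 0.0253) and Ndufaf7, a mitochondrial methyltransferase, by -0.66 (adjusted p = 0.0343). All 4 were without overlap between the ages. In either direction 29.5% of all genes and 12.3% of the 73 subunits were without overlap. Leaving out 1 array gave 0 to 6 called members, with 0 without P5 replicate 2, 1 without P5 replicate 1 and 2 without E19 replicate 4. Heart and liver marker RNA differed among the WT E19 arrays, with heart high on replicate 1 and liver on replicates 2 to 4. Without the 3 heart-rich arrays of the series 12 members were called in WT, 3 higher and 9 lower, against 10.8% of all genes higher and 8.5% lower. The 3 higher were Cox8b (log2 1.99, adjusted p = 0.00518), Cox6a2 (log2 1.85, adjusted p = 6.7e-05) and Cox4i2 (log2 0.68, adjusted p = 0.0489), and the median over the 73 subunits was -0.165. Against the WT E19 arrays left, the heart markers Myh6, Myl3, Tnni3 and Tnnt2 were higher on every P5 array. Myh7 and Ryr2 were lower on each, and the other heart markers overlapped. Myl3 read 124, 62.6 and 216 units on those E19 arrays and 730.5, 805.6 and 450.5 at P5. Whether heart RNA sets the rise of Cox8b and Cox6a2 was not tested.

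Within the complexes the WT differences at this step ran from -1.22 (Ndufa4l2, adjusted p = 0.0597) to 0.35 (Ndufb7) in complex I. They ran from -0.97 (the membrane anchor Sdhd) to -0.01 (Sdhc) in complex II and from -0.62 (the Rieske iron-sulphur protein Uqcrfs1) to 0.11 (Uqcrq) in complex III. In complex IV they ran from -0.58 (Cox7c) to 1.27 (Cox8b), and in complex V from -0.54 (the catalytic beta subunit Atp5b) to 0.03 (the stalk subunit Atp5h). None of these 10 was called in the fit of all arrays. Ndufa4l2 read 1032, 580.1, 706 and 404 units at E19 and 277, 238 and 271 at P5, without overlap.

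In KO 7 members were called lower and 0 higher from E19 to P5, against 1.24% of all genes lower, and the median over the 73 subunits was -0.44 with 4 of 73 positive. The gamma subunit of the ATP synthase motor, Atp5c1, read 14530, 11075, 20706 and 15169 units at E19 and 10508, 8855 and 6958 at P5 (log2 -0.79, SE 0.18, adjusted p = 0.0209), without overlap. Also called were the complex I subunits Ndufc1 (log2 -0.81, adjusted p = 0.0262), Ndufa6 (log2 -0.70, adjusted p = 0.0313) and Ndufab1, the mitochondrial acyl carrier protein (log2 -0.79, adjusted p = 0.0299). The other called genes were Cox7a2l (log2 -0.52, adjusted p = 0.0245), the catalytic-head subunit Atp5a1 (log2 -0.61, adjusted p = 0.0482) and the stalk subunit Atp5d (log2 -0.49, adjusted p = 0.0494). For Atp5c1 and Ndufab1 another probe set of the gene changed the opposite way, by 0.306 and 0.0965. The E19 KO group includes the 2 arrays high in heart markers. Without the 3 heart-rich E19 arrays 4 members were called higher and 1 lower, against 9.94% and 5.09% of all genes, and the median was -0.187. With the 7 arrays fitted alone 0 members were called (limma), and leaving out 1 array gave 0 (P5 replicate 2 or 3) to 35 (E19 replicate 2). The counts were 3 without E19 replicate 3, 12 without P5 replicate 1 and 16 without E19 replicate 1.

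From P5 to P56 in air the genotypes differed in the direction of their medians, and the difference itself was not called for any member. In WT 2 members were called higher (12.1% of all genes) and 2 lower (10.8% of all genes). The assembly factors Ndufaf8 (log2 0.55, adjusted p = 0.031) and Ndufaf3 (log2 0.47, adjusted p = 0.017) rose and the assembly factor Ndufaf2 fell (log2 -0.87, adjusted p = 0.00152). Ndufaf2 read 698, 764 and 720.0 units at P5 and 351, 409 and 398 at P56. Cox5b, a matrix-side subunit of complex IV, read 12008, 10743 and 12310 at P5 and 8292, 8099.9 and 8843 at P56 (log2 -0.47, SE 0.16, adjusted p = 0.0377). The WT median over the 73 subunits was -0.185, with 11 of 73 positive, and 32 of 73 were lower without overlap, against 27.1% of all genes. Liver marker RNA moved with this step: the liver marker level was 3.95, 2.97 and 1.79 at P5 and -0.759, -0.171 and -1.14 at P56. With the liver marker level as a covariate the median was -0.0778 and 1 member was called. Leaving out 1 array gave 1 called member (P5 replicate 1 or P56 replicate 3), 2 (P5 replicate 2 or P56 replicate 2) or 3.

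The extremes in WT at this step were Ndufb8 (-0.41) and Ndufb9 (0.19) in complex I and Sdhc (-0.33) and Sdhd (0.67) in complex II. In complex III they were Uqcrc1 (-0.50) and Uqcr10 (-0.08). In complex IV they were Cox5b and Cox7a1 (0.50), and in complex V Atp5g1 (-0.65) and Atp5a1 (0.04). Of these 10 only Cox5b was called.

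In KO 11 members were called higher from P5 to P56 and 0 lower, against 15.3% of all genes higher. Cox7a1 read 705, 407 and 262 units at P5 and 2876, 1915 and 1747 at P56 (log2 2.26, SE 0.72, adjusted p = 0.0189). Ndufb2, a subunit of the complex I membrane arm, read 2072, 2342 and 1928 at P5 and 4219, 3948 and 3265 at P56 (log2 0.84, SE 0.23, adjusted p = 0.00802). Ndufaf8 (log2 0.82, adjusted p = 0.00139), Ndufb9 (log2 0.75, adjusted p = 0.0482) and Ndufa4 (log2 0.68, adjusted p = 0.0355) followed, and Ndufb8 was at log2 0.66, adjusted p = 0.036. The smallest called differences were those of Ndufa2, Atp5pb, Ndufa1, Ndufb3 and Atp5g3, from 0.31 to 0.57. All 11 were without overlap.

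The KO median over the 73 subunits was 0.249, with 55 of 73 positive, and 38 of 73 were higher without overlap, against 27.3% of all genes. Centring on array medians took the share of positive subunits from 75.3% to 61.6% and the median of all genes to -0.115. It took the called members to 3, against 26.6% of all genes. Leaving out 1 array gave 3 called members (P56 replicate 1), 4 (P5 replicate 1) or up to 9. Fat markers rose in the same groups: 3 of 3 tested markers of fat of either kind were called higher in KO, among them the adipokine Adipoq (log2 3.90, adjusted p = 3.4e-05). Of 4 brown fat markers 2 were called higher, the lipid droplet protein Cidea (log2 1.95, adjusted p = 0.046) and the thyroid hormone deiodinase Dio2 (log2 1.88, adjusted p = 0.000232). With the fat marker level as a covariate 0 members were called in KO (limma), against 12.9% of all genes. The genotype-by-age term, added after the data were seen, called 0 members and 0% of all genes, with 23 members and 1531 of all genes at an unadjusted p under 0.05. Its median over the 73 subunits was 0.423, with 66 of 73 positive (90.4%, and 76.7% with arrays centred on their medians, where the median of all genes was -0.174).

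Other lists of mitochondrial and metabolic genes were measured beside the subunits. At E19 6.97% of all genes were called higher in KO and 8.28% lower, and small counts of a list are to be read against these shares. Of 12 genes of the citric acid cycle 3 were called higher in KO at E19: citrate synthase Cs (log2 0.69, adjusted p = 0.049), malate dehydrogenase Mdh2 (log2 0.60, adjusted p = 0.0312) and the succinyl-CoA ligase subunit Sucla2 (log2 0.59, adjusted p = 0.0224). Their list had a median of 0.387 there, and of 0.0518 in P56 air. Of 27 genes for chain assembly and cytochrome c 2 were called at E19, Cox10, which makes heme for complex IV (log2 0.53, adjusted p = 0.0486), and the copper chaperone Sco2 (log2 0.57, adjusted p = 0.0344), both higher in KO. Of 13 glycolysis genes 2 were called higher, Pfkp (log2 1.03, adjusted p = 0.00159) and Hk1 (log2 0.63, adjusted p = 0.0472), and of 13 fatty acid oxidation genes 0 were. Among 11 regulators of mitochondrial genes 0 were called at E19. The coactivator Ppargc1a read 689, 366, 491 and 581 units in WT and 534, 403, 1630 and 1758 in KO, high on the 2 KO arrays that were high in Cox8b. Of 76 mitochondrial ribosome genes 0 were called higher and 1 lower, and of 46 cytosolic ribosome genes 0 and 5.

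In P56 air the medians of KO over WT in the other lists were 0.0802 for chain assembly, 0.186 for the mitochondrial ribosome, 0.187 for fatty acid oxidation, -0.0671 for glycolysis and -0.0513 for the regulators, against 0.345 for the 73 subunits and 0.482 for the cytosolic ribosome. For the step from E19 to P5 the called shares of all genes were 6.22% lower in WT and 1.24% lower in KO. From E19 to P5 all 13 measured glycolysis genes had negative differences in both genotypes. In WT 8 of 13 genes were called lower, with a list median of -1.11, among them the glucose transporter Slc2a1 (log2 -1.86, adjusted p = 0.000161), Pfkl (log2 -1.56, adjusted p = 0.0217), Pdk1, which inhibits pyruvate dehydrogenase (log2 -1.38, adjusted p = 0.000438), and Pgam1 (log2 -1.35, adjusted p = 0.000127). In KO 6 of 13 were called lower, with a median of -0.861. Cpt1a, which admits fatty acids to the mitochondrion, rose in WT (log2 1.36, adjusted p = 0.00246) and in KO (log2 1.24, adjusted p = 0.0244). Of the 12 citric acid cycle genes 5 were called lower in KO, among them Suclg1 (log2 -1.27, adjusted p = 0.0166), and Ppargc1a was called lower in KO (log2 -1.31, adjusted p = 0.0365). Ppargc1a read 534, 403, 1630 and 1758 units in KO at E19 and 535, 276 and 275 at P5, with overlap, and the high arrays were the 2 rich in heart markers. The citric acid cycle level in KO at E19 was -0.157, -0.0163, 1.2 and 0.603, highest on the same arrays. Of the 46 cytosolic ribosome genes 12 were called lower in WT.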

How the data were processed

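Lung RNA of 32 mice was measured on Affymetrix 3′ expression arrays of the mouse genome, 1 array per mouse per the labels, and the labels set the groups. The authors deposited a linear intensity for each of 45101 probe sets. MAS5 is named in the submitters' processing notes; its version and scaling are not given in the sources used here. All columns of the deposited table belong to the 32 arrays. Array medians lay between 68.43 and 124.6 units, and precision is limited by the small groups.

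Limma 3.58.1 in R 4.3.3 was used. The 25th percentile of the deposited values, 26.33, was added before log2, with no further scaling. Of the probe sets with exactly 1 symbol in the platform annotation, the 1 with the highest mean over all arrays stood for each gene, and it was tested where 3 or more arrays exceeded 100.4 units, the overall median. Probe sets that are controls (64), have no symbol (9160) or have several (932) were left out. All arrays entered 1 fit of the group means, which left 22 residual degrees of freedom (eBayes with a trend). The 15 comparisons, and 2 added after the data were seen, were tested two-sided and adjusted by Benjamini-Hochberg over the genes tested, with 0.05 as threshold. P-values measure the spread between mice, which share 1 estimate over all groups, and arrays of 1 group may share a litter.

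Lists were described by counts and medians without a set test. Ratios of tissue forms were tested by exact permutation. Named genes were the tissue forms, every called member where at most 8 were called and otherwise the 5 highest and 5 lowest without overlap. The extremes of each complex at E19 and in the WT age comparisons and up to 4 called genes of each list were named too. The members and lists were chosen with earlier results of these data known. Of 40 pairs of arrays with the same replicate number 10 correlated above 0.1 (-0.408 to 0.277), and of 13 comparisons only KO against WT in P5 hyperoxia had every correlation above 0.1. Simulated data with known changes were used to test the fit. Alternatives were no filter, other offsets, other scalings, the mean of all probe sets, the compared groups alone, no trend, array weights, a replicate block, liver or muscle markers as a covariate and fits that drop 1 array. Fat markers and RNA quality as covariates and fits without doubtful arrays were added after the data were seen. Promoters are RefSeq's on GRCm38.p6, matched by symbol for 78 of 94 members.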

Additional observations from a re-analysis of the deposited data

Results flagged for a closer look

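The 60 groups of 4 arrays at E19 examined were those of named members and of the level of each complex, in each genotype. The gap between the highest or lowest array and its nearest neighbour was divided by the range of the group. In 9 of them this share was above the 95% critical value of Dixon's test for 4 samples. About 1 in 20 would be for independent normal values. These groups share the same arrays, and several members were named for their calls in E19 comparisons, so that share is no baseline here. KO replicate 2 stood apart in 6 of the 9: it was the lowest array for the complex IV subunit Cox6b1 (0.964) and for the complex I subunits Ndufc1 (0.945), Ndufa13 (0.908) and Ndufa1 (0.872), lowest for the ATP synthase subunit Atp5d (0.907), and highest for the testis form Cox6b2 (0.834). KO replicate 3 stood apart as the highest array for the testis form Cox8c (0.964) and the assembly factor Ndufaf1 (0.847). In WT, replicate 4 was the highest array for Cox7a2 (0.937). KO replicate 2 has neither the heart marker RNA of KO replicates 3 and 4 nor the high 3′ to 5′ ratio of KO replicate 1, and whether either sets these gaps was not tested.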

How the results depend on the processing

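Counts below are called members (limma) and medians are over the 73 subunits. A count without a share of all genes beside it shows only how far it depends on the arrays or settings. No log2 change of a named member changed sign and stayed called, and over all results named per gene 699 values kept their side of the threshold and 325 lost their call. Centring on array medians gave 37 calls at E19, where 22.7% of all genes were called. From P5 to P56 it gave 2 for WT and 3 for KO, against 19.9% and 26.6% of all genes. It gave 2 for WT from E19 to P5 and 0 for both P56 conditions together, against 11.3% and 1.28%. Its medians were 0.0363 (P5 air), 0.266 (P56 air), 0.0566 (P56 hyperoxia), 0.189 (hyperoxia in WT at P56), -0.228 (genotype by oxygen at P56), 0.13 (KO from P5 to P56), 0.229 (genotype by age) and 0.171 (P56 together). Quantile normalization gave 7 and 4 calls in WT and KO from E19 to P5, against 16.9% and 2.28% of all genes. Its medians were 0.182 (P56 air), -0.0152 (hyperoxia in WT at P56), 0.0272 (genotype by oxygen at P56), 0.0547 (KO from P5 to P56), 0.274 (genotype by age) and 0.212 (P56 together).

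Array weights raised nearly every count: 29 at E19, 2 and 4 at P5 in air and hyperoxia, 46 and 53 at P56 and 64 for P56 together, 8 and 6 for hyperoxia in WT and KO at P5, 1 in KO at P56, 1 for genotype by oxygen at each age, 25 and 54 in WT and KO from E19 to P5, 40 and 48 from P5 to P56, and 29 for genotype by age, where 2.47% to 57.1% of all genes were called. Its medians were 0.316 in P56 hyperoxia and -0.0167 for genotype by oxygen at P56. The compared groups alone gave 0 at E19, 30 in P56 air (9.04% of all genes) and 1 for hyperoxia in KO at P56. They gave 7 and 0 in WT and KO from E19 to P5 and 32 and 34 from P5 to P56. For genotype by age they gave 20, and for P56 together 19. Apart from P56 air, the shares of all genes in these fits are not given here. The counts without a share do not show whether the members differed from other genes.

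The liver covariate gave 0 calls at E19, 4 in KO from E19 to P5 and 1 in WT from P5 to P56, with medians of 0.0437 (P5 air), -0.0778 (WT from P5 to P56) and 0.308 (genotype by age). The muscle covariate gave 1 call for hyperoxia in KO at P5 and 8 in WT from E19 to P5, with medians of -0.177 (P5 hyperoxia), -0.134 (hyperoxia in KO at P5), -0.127 (genotype by oxygen at P5) and 0.338 (genotype by age). The fat covariate was added after the data were seen, like all that follow here. It gave 3 at E19 and 1 in KO from E19 to P5, against 13.2% and 1.02% of all genes. From P5 to P56 in KO and for P56 together it gave 0, against 12.9% and 0.03%. Its medians were 0.258 (P56 air), 0.00893 (hyperoxia in WT at P56), 0.162 (KO from P5 to P56) and 0.333 (genotype by age). Without the 3 heart-rich arrays there were 16 at E19 and 12 in WT from E19 to P5. Without the 2 arrays of highest 3′ to 5′ ratio there were 12 at E19, 10 in P56 air and 25 for P56 together. The called shares of all genes were 16.7%, 3.77% and 9.81%. From E19 to P5 there were 10 and 26 in WT and KO, against 25.6% and 8.64%. From P5 to P56 there were 8 and 28, against 34.5% and 42.7%. The median for hyperoxia in WT at P56 was 0.00541. The ratio as a covariate gave 6 and 1 in P56 air and hyperoxia and 33 together. The called shares of all genes were 3.57%, 2.68% and 14.8%. From E19 to P5 it gave 9 and 26 in WT and KO, against 25.5% and 9.68%. From P5 to P56 it gave 8 and 26, against 34.8% and 42.2%. Both changes at once gave 12 at E19, 13 in KO from E19 to P5, 9 in WT from P5 to P56 and 0 for P56 together. The called shares of all genes were 18.1%, 3.16%, 35.5% and 0.0225%. The medians were 0.132 (P56 hyperoxia) and 0.0079 (hyperoxia in WT at P56). The causes of these moves were not tested.

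With the replicate number as a block, 2 members were called in each genotype from E19 to P5, 18 in KO from P5 to P56, and no other call count moved by over 1.5 times. In P5 hyperoxia, where the numbers may pair the arrays, 0 members were called with the block. Leaving out 1 array gave 2 to 32 calls at E19, 0 to 6 in WT and 0 to 35 in KO from E19 to P5, 1 to 3 in WT and 3 to 9 in KO from P5 to P56, and 0 to 17 for P56 together. The medians ranged from -0.192 to -0.0324 for genotype by oxygen at P56 and from 0.00541 to 0.127 for hyperoxia in WT at P56. Groups of 3 or 4 arrays and the marker RNA of other tissues at E19 and P56 limit what the calls can show.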
